A study of Mus musculus with 6 samples.

Results

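The family of miR-148 and miR-152 was examined in LPS-stimulated mouse macrophages that lacked RBP-J, the DNA-binding protein through which Notch receptors act on their target genes. Its 3 members on the array, mmu-miR-148a, mmu-miR-148b and mmu-miR-152, were taken by their exact names from the 611 mouse miRNAs that the array measures. The 3 knockout samples (RBP-J KO) came from MxCre-RBP-Jf/f mice, in which both Rbpj alleles are floxed. The 3 control samples carry the label WT, but the growth protocol describes their donors as MxCre-RBP-Jf/+, so controls carried the Cre and a floxed allele beside an intact one, and they are called controls here. Every donor was a female C57BL/6 mouse given poly(I)-poly(C), which switches on the interferon-responsive Mx promoter that drives Cre, and all bone-marrow-derived macrophages (BMDMs) received LPS for 24 h. The Mx promoter is active in many cell types, so the deletion is not specific to macrophages. Nothing in the labels says whether the replicates were separate animals, so every p-value measures only the spread between these samples. Ages were not given in the sources used here. The question the comparison addresses is which miRNAs lie downstream of Notch in macrophages, and it was put here to this family.

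A miRNA guides Argonaute proteins to mRNAs that pair with its seed, the bases near its 5′ end, and lowers the stability and translation of those mRNAs. miRNAs that share a seed are grouped as a family because they can recognise the same sites. The family is known for targeting the DNA methyltransferase mRNA DNMT1 in human cells and, in mouse dendritic cells stimulated through Toll-like receptors, Camk2a, which encodes a calcium-dependent kinase. In mouse macrophages miR-148a-3p has been described as a Notch-dependent miRNA.

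The mature sequences show how alike the members are, and therefore what the probes had to tell apart. They are printed 5′ to 3′ as RefSeq gives them for GRCm38.p6, with the seed (bases 2 to 8) in capitals.
mmu-miR-148a-3p: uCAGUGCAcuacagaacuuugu
mmu-miR-148b-3p: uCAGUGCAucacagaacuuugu
mmu-miR-152-3p: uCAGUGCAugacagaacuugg
The seed CAGUGCA was found in 3 of 1738 mature mouse sequences of that table, which are these members. Counted from 1 at the 5′ end, miR-148b differs from miR-148a by C9U and U10C, and the 12 bases at the 3′ end are the same in both. miR-152 differs from miR-148a by C9U, U10G and U20G over the 21 bases of miR-152, and from miR-148b by C10G and U20G.

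The members come from separate chromosomes. Mature miR-148a lies at chr6:51269829-51269850 on the minus strand, inside the annotated span of the predicted gene Gm38821 and between Npvf and Nfe2l3. Mature miR-148b lies at chr15:103285185-103285206 on the plus strand, inside Copz1 on the same strand, and mature miR-152 lies at chr11:96850439-96850459 on the plus strand, inside Copz2 on the same strand. Copz1 and Copz2 encode alternative zeta subunits of the COPI coat, which shapes vesicles at the Golgi. The host genes were not measured on these arrays.

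Levels were read as Cy3 brightness of spots, in the scanner's arbitrary intensity units after background subtraction. The 75th percentile of the 200 probes that were well above background on all 6 arrays is called the array's reference, and scaled values are percentages of it. This reference averaged 213 ± 23.2 units on knockout arrays and 294 ± 55.1 on control arrays (SD, n = 3 each, two-sided exact permutation p = 0.1, which with 3 arrays per genotype is the lowest possible). Summed signal was 0.767 times that of the controls. All 6 myeloid marker miRNAs were detected on every array, while the erythroid or platelet (3), endothelial (2), stromal (5), epithelial (6), muscle (3) and hepatocyte (1) markers were detected on none. Among the 3 lymphoid markers, miR-181a and miR-181b were detected on every array and miR-150 on none. The arrays carry no measurement of Rbpj mRNA, and the loss of RBP-J was not checked.

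miR-148a was dim on every array, and dimmer on the knockout arrays as measured. Its brighter probe, A_54_P1274, had a median spot signal of 6.17, 3.85 and 7.80 units in RBP-J KO samples 1 to 3, against 12.3, 12.8 and 10.3 units in control samples 1 to 3. Every knockout array lay below every control array, as it did for 91 of 611 miRNAs (14.9%). The means were 5.94 ± 1.99 units in RBP-J KO and 11.8 ± 1.31 units in controls (SD, n = 3 each), a difference of -5.86 units (two-sided exact permutation p = 0.1, Benjamini-Hochberg adjusted p = 0.611 over 611 miRNAs). With 3 arrays per genotype no p-value of this test, adjusted or not, can be below 0.1. In a bulk sample, fewer cells with the miRNA and less of it per cell cannot be told apart.

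Most of these readings were below the level at which the scanner software called a spot well above background. Of 10 spots per array, 0, 0 and 0 carried that flag in RBP-J KO samples 1 to 3, against 4, 7 and 0 in control samples 1 to 3. The dimmest flagged mouse miRNA spot had 11.6, 10.1 and 11.4 units on the knockout arrays, against 12.9, 11.1 and 12.6 units on the control arrays, and the brightest miR-148a spot of control sample 3, at 11.3 units, fell short of its own array's limit. The probe median stood above 98.1%, 72% and 100% of negative control spots in RBP-J KO samples 1 to 3, against 100% in each control sample. Knockout sample 2 was therefore within the range of spots that match no miRNA, and the other knockout arrays were at its upper end or above it. Under the rule that at least 50% of spots must be flagged, miR-148a was detected on 0 knockout arrays and 1 control array. A surplus of at least 1 control array under this rule was seen for 17 of 611 miRNAs (2.78%). Of these 611, 452 were detected on no array and could show no surplus.

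The second miR-148a probe, A_54_P1273, had no flagged spot on any array. Its medians were 4.76, 1.70 and 5.21 units in RBP-J KO samples, against 8.70, 5.04 and 6.16 units in control samples. Knockout sample 3 lay above control sample 2, so on this probe the groups overlapped.

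**Figure D1:**
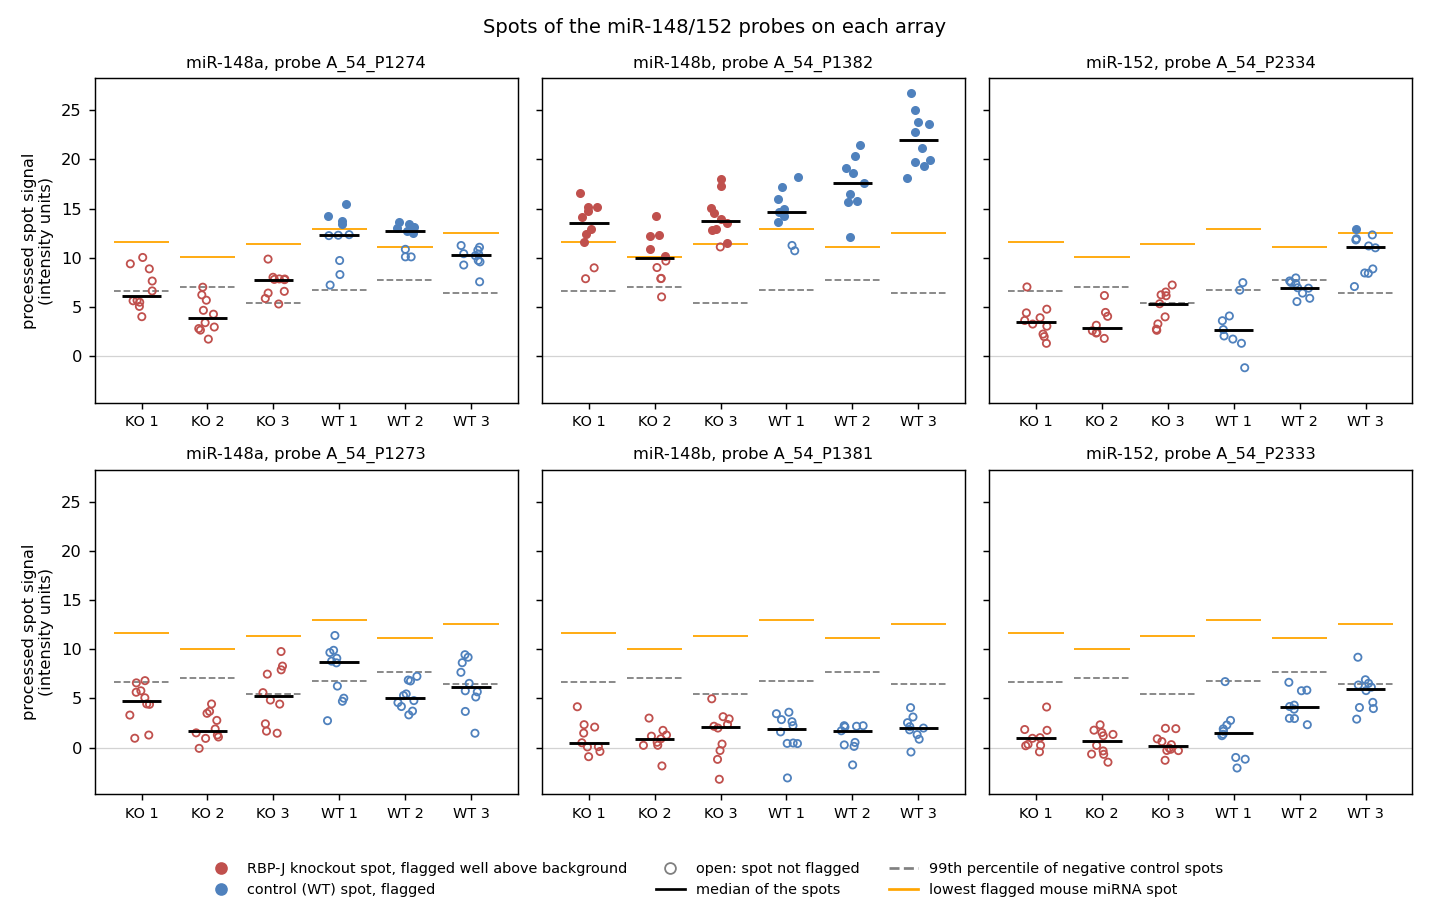
Processed signal (intensity units) of each spot for both probes of each family member on the 3 RBP-J knockout and 3 control (WT) arrays, without spots set aside as outliers; filled points were called well above background, black lines are medians, dashed lines the 99th percentile of negative control spots and orange lines the dimmest flagged mouse miRNA spot. The miR-148b probe A_54_P1382 has flagged spots on all 6 arrays, while the miR-148a probe A_54_P1274 has them on control arrays 1 and 2.

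The plot of single spots shows that the software's limit cuts through the miR-148a values of control samples 1 and 2, at 12.9 and 11.1 units, and lies above all of them in the other samples. The gene-level table gives a total signal for each miRNA, the error of that total and a detection call of its own. There miR-148a totalled 7.49, 4.15 and 8.61 units in RBP-J KO samples 1 to 3, against 13.0, 11.5 and 10.6 units in control samples 1 to 3. Total over error was 3.33, 2.16 and 3.79 in the knockout samples, against 4.96, 5.09 and 4.36 in the controls. In totals every knockout array lay below every control array, as for 14.9% of 611 miRNAs. For total over error no such share was computed. miR-148a was called detected in 1 RBP-J KO sample, the third, and in 3 of 3 control samples. A surplus of at least 2 control arrays in this call was seen for 10 of 611 miRNAs (1.64%), miR-148a among them, and a surplus of at least 2 knockout arrays for 0 of 611. Between 153 and 168 of the 611 were called on each array, and those called on no array could show no surplus. The totals averaged 6.75 ± 2.32 units in RBP-J KO and 11.7 ± 1.18 units in controls (SD, n = 3 each), a difference of -4.96 units (two-sided exact permutation p = 0.1, adjusted p = 0.605 over 611 miRNAs).

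**Figure D2:**
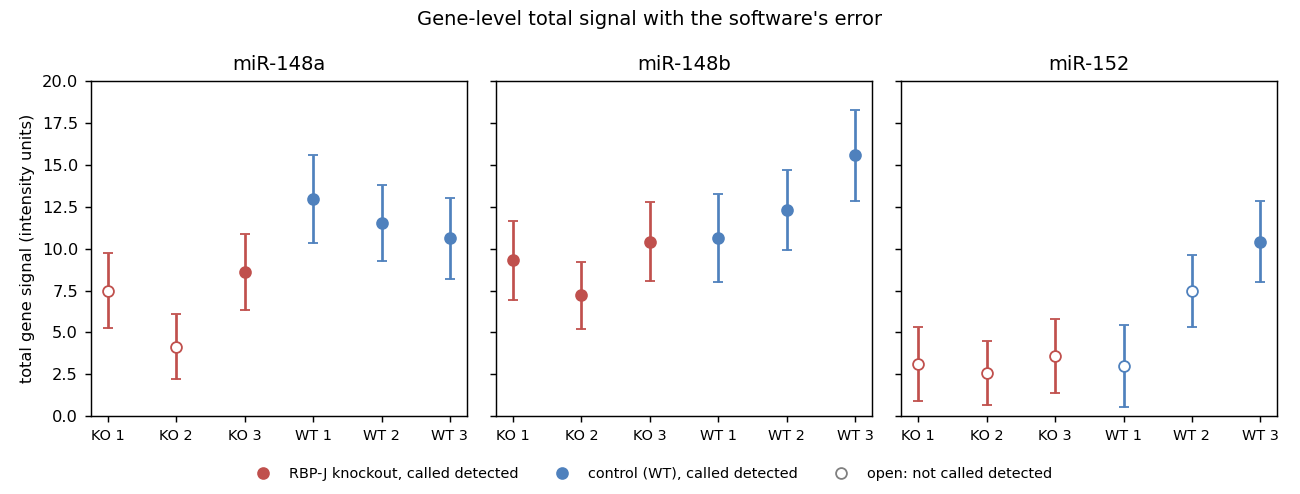
Total gene signal (intensity units) of each family member on each RBP-J knockout and control (WT) array, with the error that the scanner software gives as bars; filled points were called detected. miR-148a was called in 1 of 3 knockout and 3 of 3 control samples, miR-148b in all 6 samples, and miR-152 in control sample 3.

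After scaling for array brightness, miR-148a had 2.72%, 2.07% and 3.46% of the reference in RBP-J KO samples 1 to 3, against 4.29%, 5.26% and 2.93% in control samples 1 to 3. Control sample 3, on the brightest array, now lay below knockout sample 3, and the groups overlapped. The means were 2.75 ± 0.696% in RBP-J KO and 4.16 ± 1.17% in controls (SD, n = 3 each), a difference of -1.41 percentage points (two-sided exact permutation p = 0.2, adjusted p = 0.788 over 611 miRNAs). All arrays lay on 1 slide. The difference was -2.38 points in slide column 1, with 2 arrays of each genotype, and 0.533 points in slide column 2, with 1 array of each, so its sign changed between columns. Because the probe was not well above background on any knockout array, and its measured control mean lay under the limit set by those arrays, no fold change is given. miR-148a did not enter the test across miRNAs, which required detection on at least 3 arrays.

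miR-148b, the member with the Copz1 host, was measured on every array. Probe A_54_P1382 had 8, 5 and 9 flagged spots of 10 in RBP-J KO samples 1 to 3, against 8, 10 and 10 in control samples 1 to 3, and the gene-level call was positive in 3 of 3 samples of both genotypes. Its median spot signal was 13.5, 9.96 and 13.8 units in RBP-J KO, against 14.6, 17.6 and 22.0 units in controls. As with miR-148a, every knockout array lay below every control array. The mean was 12.4 ± 2.14 units in RBP-J KO and 18.1 ± 3.71 units in controls (SD, n = 3 each), a difference of -5.66 units (two-sided exact permutation p = 0.1, adjusted p = 0.611 over 611 miRNAs).

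Such a separation was common before scaling, when knockout arrays were dimmer as a whole. Every knockout array lay below every control array for 2 of 3 family members, against 91 of 611 miRNAs (14.9%). Among the 135 tested miRNAs, which do not include miR-148a, 38 were separated this way (28.1%). In the gene-level totals the knockout arrays were all lower for 2 of 3 members and for 91 of 611 miRNAs (14.9%). The miR-148b signal in RBP-J KO was 0.687 times that in controls, and the median of that ratio over the 135 tested miRNAs was 0.803. The ratios of miR-148a (0.504) and miR-152 (0.562) lay further below that median. Both rest on knockout signals that were not well above background, so they are not read as fold changes. After scaling the separation held for 0 of 3 members and for 53 of 611 miRNAs (8.67%). The part of array brightness in the unscaled differences was not tested beyond this scaling.

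Scaled, miR-148b stood at 5.95%, 5.34% and 6.11% of the reference in RBP-J KO samples 1 to 3, against 5.08%, 7.26% and 6.25% in control samples 1 to 3. The knockout values lay between the lowest and the highest control, so the groups overlapped fully. In the fit of limma over the 135 miRNAs detected on at least 3 arrays, its log2 values were -4.07, -4.23 and -4.03 in RBP-J KO and -4.30, -3.78 and -4.00 in controls. The difference was -0.082 on the log2 scale (SE 0.18, 95% interval -0.50 to 0.33, limma with Benjamini-Hochberg adjusted p = 0.868). With no floor on dim signals, a setting chosen after seeing the data, the interval was -0.53 to 0.36. By slide column the log2 difference was -0.11 in column 1 and -0.032 in column 2.

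The values sat close to the floor of -4.32 that was applied to dim signals, although no miR-148b array was at it. The floor lay 0.30 below the control mean, so a larger drop could not have been read in full on the floored scale. Of 135 tested miRNAs, 0 were called by limma at an adjusted p of 0.05 (0% in each direction), with 5 higher (3.7%) and 1 lower (0.741%) at an unadjusted p under 0.05, and miR-148b was not among these 6. The median difference over the tested miRNAs was 0.11, so relative to it miR-148b stood at -0.19.

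**Figure D3:**
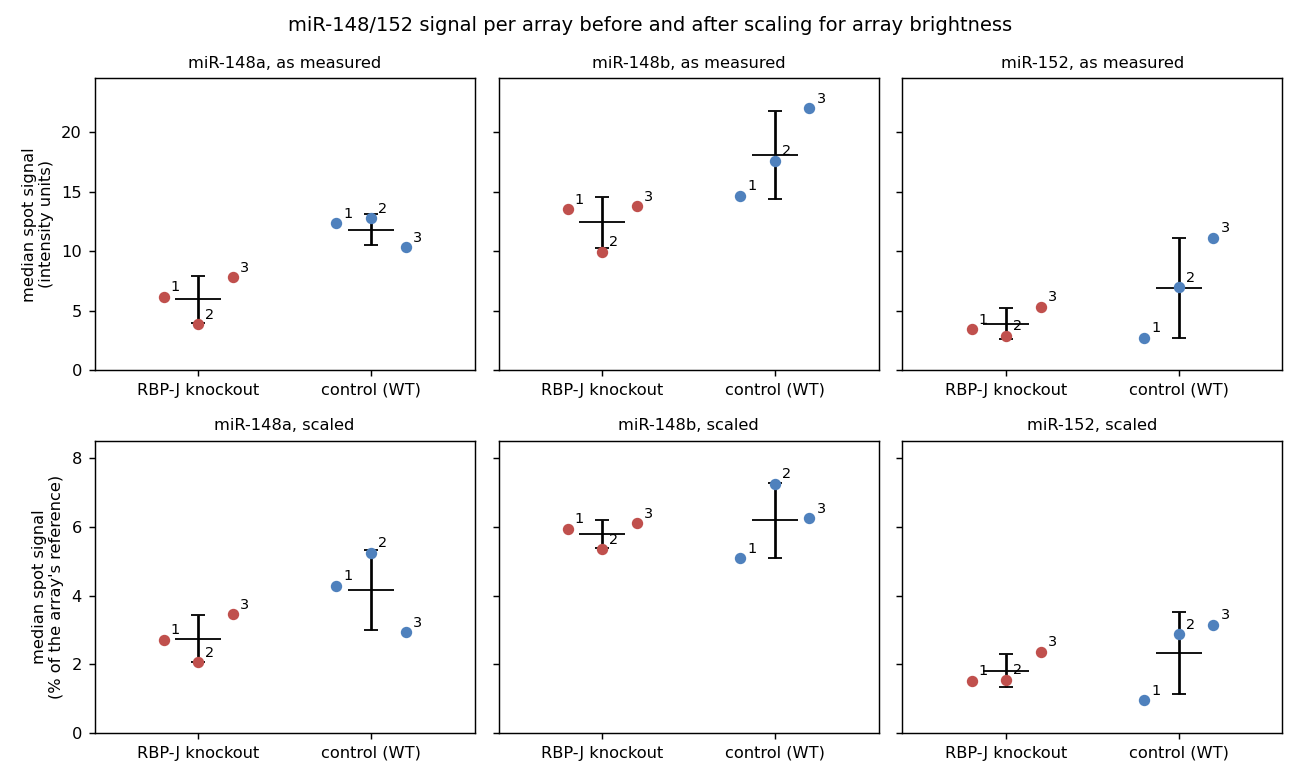
Median spot signal of the brighter probe of each family member, as measured (upper, intensity units) and as a percentage of the array's reference (lower), for RBP-J knockout and control (WT) samples; numbers mark replicates, and black lines and bars are means and SD (n = 3 each). As measured, all knockout values of miR-148a and miR-148b lie below the controls, and after scaling the groups of all 3 members overlap.

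The plot of measured and scaled signals puts both readings side by side. The second miR-148b probe, A_54_P1381, lay within the range of the negative controls. Its medians were 0.498, 0.901 and 2.08 units in RBP-J KO, against 1.92, 1.72 and 1.99 units in controls. Between 19.8% and 69.4% of negative control spots were dimmer than it. The miR-148b result therefore rests on 1 probe, whose sequence was not used here, and cross-hybridisation between members that differ at 2 positions was not tested.

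The miRNAs whose pattern over the 6 arrays was most like that of miR-148b were miR-15a, miR-671-5p and miR-193. Their mean absolute difference from it in centred log2 value was 0.096, 0.10 and 0.10, against a median of 0.24 over the 134 other tested miRNAs. miR-671-5p and miR-193 were, like miR-148b, close to the floor. miR-671-5p was at it in control sample 1, and miR-193 in RBP-J KO sample 2 and control samples 1 and 3. The measure favours miRNAs that vary little, so a small value need not mean a shared pattern.

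miR-152, the member with the Copz2 host, was not detected by the 50% rule on any array of either genotype. Probe A_54_P2334 had a median of 3.46, 2.88 and 5.35 units in RBP-J KO samples 1 to 3, against 2.72, 6.97 and 11.1 units in control samples 1 to 3. This probe was dimmest in control sample 1 and brightest in control sample 3, so the groups overlapped. Flagged spots numbered 0, 0 and 0 of 10 in RBP-J KO, against 1, 0 and 1 in controls, and the flagged spot of control sample 1 was an outlier left out of the median. The means were 3.90 ± 1.29 units in RBP-J KO and 6.94 ± 4.20 units in controls (SD, n = 3 each), a difference of -3.04 units (two-sided exact permutation p = 0.4, adjusted p = 0.766 over 611 miRNAs).

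Scaling left miR-152 at 1.52%, 1.55% and 2.37% of the reference in RBP-J KO, against 0.945%, 2.87% and 3.16% in controls. The difference was -0.511 percentage points (two-sided exact permutation p = 0.6, adjusted p = 0.851 over 611 miRNAs), smaller than the SD of the controls, 1.20 points. In the gene-level table it totalled 3.11, 2.60 and 3.57 units in RBP-J KO samples, against 3.02, 7.47 and 10.4 units in control samples, and it was called detected in 0 knockout samples and in 1 control sample, the third. A surplus of at least 1 control array in this call was seen for 23 of 611 miRNAs (3.76%), which again include those called on no array. The knockout samples were alike, and the spread lay in the controls. Probe A_54_P2333 had lower medians, 0.950, 0.717 and 0.131 units in RBP-J KO against 1.51, 4.18 and 5.97 units in controls, and here every knockout array lay below every control array, as for 197 of 1759 mouse probes (11.2%). Its order over the arrays was not that of the brighter probe: control sample 1 moved above every knockout sample. All 3 knockout medians of this probe were below the median negative control spot of their own array. None of its spots was flagged, and all miR-152 values were at the floor of the scaled scale. No fold change is therefore given, and miR-152 did not enter the limma test.

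The other arm of the miR-148a hairpin, named mmu-miR-148a* on the array and miR-148a-5p in RefSeq, has a different seed, as its sequence shows.
mmu-miR-148a-5p: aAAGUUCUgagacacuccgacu
It lies at chr6:51269867-51269888. Totals were -1.06, -1.11 and -1.40 units in RBP-J KO samples, against -0.469, -1.15 and 0.214 units in control samples, all around zero. It was called detected on 0 arrays. The other arms of miR-148b and miR-152 are not among the array's mouse miRNA names.

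The authors' deposited log2 values, normalized between arrays by steps not given in the sources used here, placed the members in a like way. miR-148a stood at 2.95, 2.12 and 3.22 in RBP-J KO, against 3.54, 3.72 and 3.17 in controls. Knockout sample 3 lay above control sample 3, as it did in the scaled signals, and the difference was -0.71. For miR-148b the values were 3.36, 2.98 and 3.49 in RBP-J KO, against 3.21, 3.86 and 3.61 in controls. Again the groups overlapped, and limma on this scale gave -0.29 (adjusted p = 0.833 over the 135 tested miRNAs). miR-152 stood at 1.76, 1.62 and 1.82 in RBP-J KO, against 1.11, 2.93 and 3.09 in controls, with control sample 1 below all others.

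Across the settings tried for miR-148b, 24 of 26 differences were below 0 and 2 above. The smallest limma adjusted p was 0.230, and the 95% intervals reached down to -1.09 and up to 0.58. The lowest bound came from unscaled signals with no floor, where the difference was -0.54 (limma adjusted p = 0.244). Several settings narrow the range that a difference can take: 1 or 2 arrays were raised to the floor with normexp, with the percentile over all mouse probes, with quantile scaling and with unscaled signals, and the mean of both probes includes one within the negative controls. The sign changed with normexp background correction (0.26) and without control sample 2 (0.040), so no direction is given for miR-148b. With normexp the median over all tested miRNAs was 0.23, close to the miR-148b value.

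**Figure D4:**
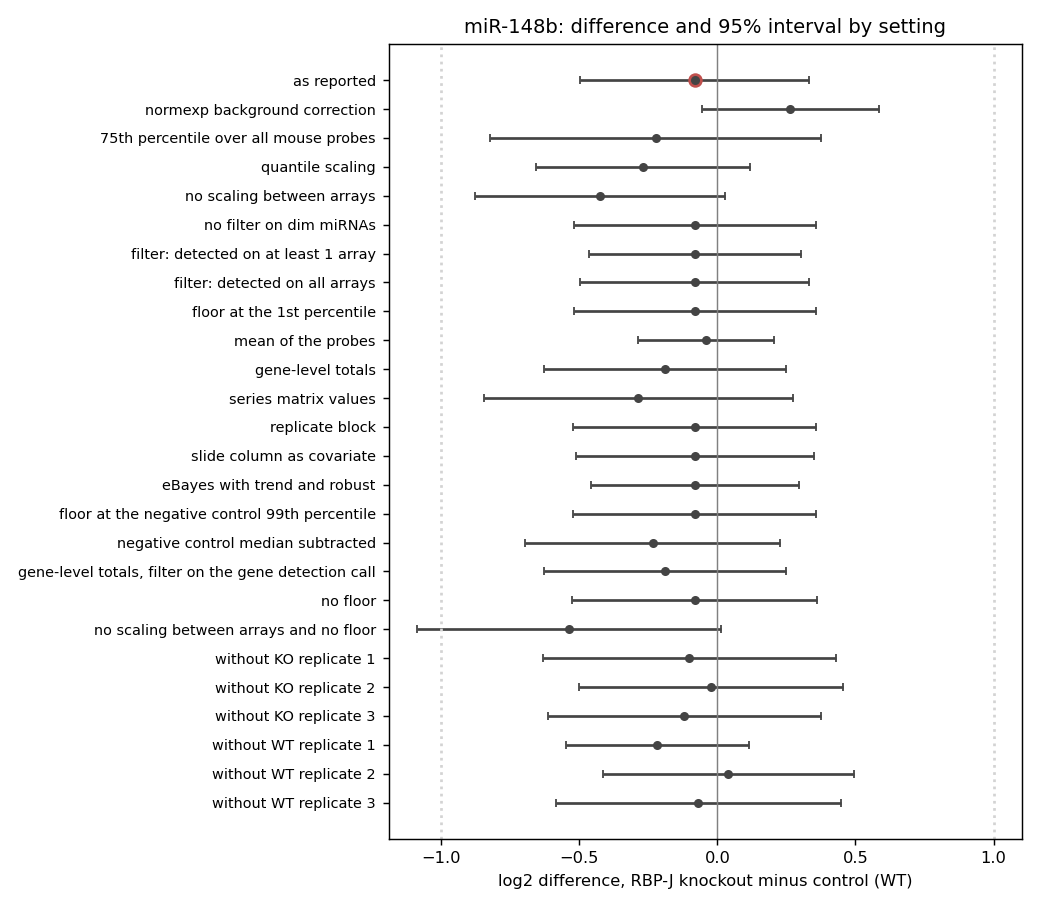
Log2 difference of miR-148b, RBP-J knockout minus control (WT), with its 95% interval under each of 26 settings, the reported setting in red and dotted lines at a 2-fold change. The intervals lie between -1.09 and 0.58, and in settings with arrays at the floor the floor limits the difference that can be read.

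The plot of miR-148b by setting shows that every interval held 0. Other miRNAs tied to Notch were read from the same fit. Of 26 Notch-linked miRNAs on the array, 13 were tested and 13 were detected on no array. Under the reported scaling 8 of the 13 were higher and 5 lower with 0 called, against 97 higher and 38 lower of all 135. The median difference of the 13 was 0.15 against 0.11 over all 135. The list's split was 1 higher and 12 lower with no scaling between arrays, where the median over all 135 was -0.31. The list's median is therefore best read relative to that of all tested miRNAs. Read so, it lay between -0.061 and 0.040 under 7 scalings or tables.

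The 4 Notch-linked miRNAs with the smallest p were miR-34a, miR-10a, let-7e and miR-99b. None passed (limma adjusted p = 0.637 for each). miR-34a, which targets Notch receptor and ligand mRNAs in human cells, had log2 values of 1.31, 0.92 and 1.34 in RBP-J KO, against 0.86, 0.53 and 0.91 in controls, a difference of 0.43 (SE 0.19). Its knockout values were all above its control values, as for 10 of the 135 tested miRNAs (7.41%). miR-10a, encoded in a Hox cluster, had -1.30, -1.39 and -1.46 in RBP-J KO, against -1.40, -1.94 and -2.29 in controls, a difference of 0.49 (SE 0.23), with overlap at control sample 1. let-7e and miR-99b, which are made from a shared cluster, differed by -0.47 (SE 0.24) and -0.46 (SE 0.26). For let-7e every knockout array lay below every control array, as for 4 of the 135 tested miRNAs (2.96%), and for miR-99b the groups overlapped.

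A family that shares a known target class with the members was read the same way. The miR-29 family, which targets DNA methyltransferase mRNAs in human cells, was tested in full, with differences of 0.18 (SE 0.18) for miR-29a, 0.27 (SE 0.19) for miR-29b and 0.093 (SE 0.20) for miR-29c. None passed the threshold (smallest limma adjusted p = 0.637). All 3 were above 0 as reported, as were 97 of the 135 tested miRNAs. All 3 were below 0 with no scaling between arrays, where the median over all tested miRNAs was -0.31.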

How the data were processed

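Total RNA of 3 RBP-J KO and 3 control BMDM samples was hybridised to 1-colour Cy3 mouse miRNA arrays, which the file headers give as design 021828. Samples were grouped by title. The deposited intensity values are spot signals and gene-level totals. Per the file headers they were background-subtracted with version 10.5.1.1 of Feature Extraction, whereas version 9.1 of Agilent Feature Extraction stands in the submitters' processing notes. They are not normalized between arrays. The authors also deposited a matrix of log2 values, made by steps that the sources used here do not give. A gene-level detection call and spot flags were used as deposited by the authors (other values, 0 or 1).

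For each of 1759 mouse probes the median was taken over spots without an outlier flag, divided by the 75th percentile of the 200 probes detected on all 6 arrays, raised to a floor (the 5th percentile of scaled signals that were detected) and log2 transformed. Each miRNA took its brighter probe. A miRNA was detected when at least 50% of spots were well above background, and tested when detected on at least 3 arrays. limma 3.58.1 in R 4.3.3 (lmFit, eBayes, no covariate) compared genotypes, with Benjamini-Hochberg adjustment at 0.05. A two-sided exact permutation test of each miRNA's median signal, adjusted over 611 miRNAs, gave the values for single members. Its p-values cannot be below 0.1 with 3 arrays per genotype, so no miRNA could pass 0.05 in it. The limma fit was tested on simulated data with known changes. No floor was applied to those data, so that test does not cover values at or near the floor.

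Named miRNAs were the 3 members, other arms of their hairpins, the 4 Notch-linked miRNAs of smallest p, the miR-29 family, and the 3 patterns most like a tested member. A further list named by the rule is not reported here. Members and lists were chosen with earlier results of these data known. Mature sequences and their positions come from RefSeq (GRCm38.p6), where all 4 names matched. The array files name no build. Alternatives covered background correction, scaling, filters, floor, probe rule, detection rule, gene-level totals, the series matrix, replicate block, slide column, variance model and leaving out each array. Knockout and control arrays lay in different rows of 1 slide, so slide row and genotype cannot be told apart. The number of arrays limits the precision.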

Additional observations from a re-analysis of the deposited data

How the results depend on the processing

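limma called 0 miRNAs in every setting tried. Unadjusted p-values under 0.05 numbered 5 higher and 1 lower as reported, 24 and 3 with normexp background correction, 0 and 26 without scaling, 1 and 8 with quantile scaling or with the series matrix, and 0 and 5 with the percentile over all mouse probes. The median over all tested miRNAs was 0.11 as reported, 0.23 with normexp and -0.31 without scaling. miR-148b turned sign with normexp (0.26) and without control replicate 2 (0.040), and ranged from -0.22 to 0.040 when single arrays were left out. Relative to the median of all tested miRNAs it lay between -0.35 and 0.031. The normexp offset of 50 exceeds every family probe's median, so differences are compressed there. With no floor, chosen after seeing the data, miR-148b stood at -0.082 with scaling and at -0.54 without it (95% interval -1.09 to 0.012).

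The miR-148a difference was -0.025 as reported, with 3 RBP-J KO and 2 control arrays at the floor. The difference was 0.17 with normexp, -0.13 with the percentile over all mouse probes and -0.067 with quantile scaling. It was -0.20 with the floor at the 1st percentile, -0.45 with gene-level totals and -0.71 with the series matrix. Leaving out single arrays gave -0.037 to 0. Settings chosen after seeing the data gave -0.22 (floor at the negative control 99th percentile), -0.15 (negative control median subtracted) and -0.45 (gene-level totals with the gene detection call as filter, where miR-148a was tested, limma adjusted p = 0.524, 95% interval -0.96 to 0.05). miR-152 was 0 as reported, 0.21 with normexp, -0.27 with gene-level totals and -0.64 with the series matrix, and 0 whichever array was left out. The cause of these moves was not tested, beyond the floor that hides differences between dim values.

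Detection of miR-148a on 1 array became 2 with a single flagged spot as the rule (0 RBP-J KO, 2 control), 6 with the positive-and-significant flag, 4 with the gene-level call and 4 with the negative control 99th percentile (1 RBP-J KO, 3 control in both). Detection of miR-152 on 0 arrays became 2, 6, 1 and 1 under the same rules. With outlier spots left out, a check chosen after seeing the data, a single flagged spot was found on 2 arrays for miR-148a and on 1 for miR-152.

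In scaled signal, leaving out single arrays moved miR-148a between -2.02 and -0.858 percentage points, the smallest without control replicate 2, miR-148b between -0.950 and 0.137, and miR-152 between -1.20 and -0.0953, the smallest without control replicate 3. miR-148b was above 0 without control replicate 2 only.

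Whether replicate numbers pair the samples was not settled: deviations of same-numbered arrays correlated at 0.174, -0.0718 and 0.373. RBP-J KO samples 1 and 3 correlated best with the control of their own number. RBP-J KO sample 2 correlated best with control sample 1 (0.160). With the replicate block miR-148b stayed at -0.082 (SE 0.19, limma adjusted p = 0.857), and unadjusted p-values under 0.05 numbered 11 higher and 2 lower. The smallest limma adjusted p over the tested miRNAs was 0.485 with the block, against 0.637 as reported. The filter for detection on all arrays gives no value for miR-148a or miR-152, and the variance model with trend and robust was run on tested miRNAs only.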

Other observations

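The software's limit for a single spot differed between arrays by about as much as the miR-148a signal did between some of them. The dimmest flagged mouse miRNA spot had 10.1 units in RBP-J KO sample 2 and 12.9 units in control sample 1. The miR-148b probe of RBP-J KO sample 2, with a median of 9.96 units, had 5 flagged spots of 10, while the miR-148a probe of control sample 3, with a median of 10.3 units, had 0.

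Negative control spots did not follow the dimmer knockout arrays. Their median was 2.07 ± 0.598 units in RBP-J KO and 1.48 ± 1.11 units in controls (SD, n = 3 each, two-sided exact permutation p = 0.4), while the reference used for scaling was 0.724 times that of the controls. With the negative control median subtracted before scaling, a step chosen after seeing the data, miR-148a averaged 1.75 ± 1.06% of the reference in RBP-J KO and 3.60 ± 0.857% in controls, a difference of -1.86 percentage points (two-sided exact permutation p = 0.2, adjusted p = 0.655 over 611 miRNAs). The groups still overlapped.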
